A study of Arabidopsis thaliana with 15 samples.

Results

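The genes described here are 9 regulators of flowering that act in and around the SOC1 pathway of Arabidopsis thaliana, chosen by locus out of 28775 genes counted. They are SOC1 (AT2G45660), its close relatives AGL42 (AT5G62165), AGL71 (AT5G51870) and AGL72 (AT5G51860), the related MADS-box genes AGL24 (AT4G24540), SVP (AT2G22540) and FUL (AT5G60910), and the inflorescence regulators FD (AT4G35900) and TFL1 (AT5G03840). All 9 passed the filter on low counts. They were chosen with earlier results of these data known, so the shares of all genes set beside them are description only. RNA was sequenced from tissue labelled as inflorescence meristem, in 15 libraries that form 6 groups, with the aim of learning how the KNOX class I gene SHOOT MERISTEMLESS (STM) acts in flower formation.

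All plants were of the Ler background, grown at 21 °C for 6 weeks. The microRNA line (n = 2) carried the ap1-1 allele and, under the AP1 promoter, a microRNA that targets STM and its relative BREVIPEDICELLUS (BP, named KNAT1 in the reference), so the microRNA was directed to the cells in which that promoter is active. Its comparison group was ap1-1 without the microRNA (n = 3), a mutant of the flower meristem gene APETALA1. Both of these groups therefore carried ap1-1, and the labels give them no treatment. The allele is ap1-1 in the sample labels, whose naming is kept here, and ap1-4 in the study's design text. STM-GR plants carried STM fused to the glucocorticoid receptor under the 35S promoter, which is active in most plant tissues, and were sprayed with 10 µM dexamethasone (DEX) in 0.02% Silwet (n = 3) or with 0.02% Silwet alone as mock (n = 3). DEX lets the fusion protein enter the nucleus. Wild type was sprayed with 10 µM DEX (n = 2) or had no treatment (n = 2, called WT), and sprayed plants were sampled after 5 h. Nothing in the labels says whether replicates were grown apart or how many plants were pooled, so p-values measure the spread between these samples.

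SOC1 is a MADS-box transcription factor that integrates the photoperiod, ageing and gibberellin pathways and promotes flowering at the shoot apex. AGL42, AGL71 and AGL72 are SOC1-like MADS-box genes that promote flowering at apical and axillary meristems. AGL24, which acts with SOC1 in promoting flowering, and SVP, which delays it, are close relatives that later take part in keeping floral organ genes off in young flower meristems. FUL, a relative of AP1, promotes flowering. FD is the bZIP partner of the florigen FT at the shoot apex, and TFL1 is the FT relative that opposes it and keeps the inflorescence meristem indeterminate. AP1 is known to repress SOC1, AGL24 and SVP in young flower meristems.

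The stretch of 250 bases before the annotated start of each gene was searched on both strands, in the TAIR10.1 reference from RefSeq, for TGACAG, which lies in the site bound by the maize KNOX protein KNOTTED1, and for the CArG box that MADS-box proteins bind. TGACAG was found in 2 of the 9 genes, SOC1 and AGL24, and in 1609 of 27443 promoters of the genome (5.86%). No CArG box was found in the 9 windows, against 692 of 27443 promoters (2.52%). A match describes letters, not a bound site, and no match says only that the letters are not in this window. Both stretches are shown because they hold a match. SOC1 and AGL24 were called between the microRNA line and ap1-1, in opposite directions, but not with DEX against mock in STM-GR. AGL42, SVP and TFL1 were also called between the microRNA line and ap1-1, without TGACAG in this window. Capitals mark TGACAG, whose first letter lies 128 bases before the start in SOC1 and 197 bases before it in AGL24, and both stretches are written 5′ to 3′ on the gene's strand, which is minus for both.
SOC1, chr2:18811126-18811375: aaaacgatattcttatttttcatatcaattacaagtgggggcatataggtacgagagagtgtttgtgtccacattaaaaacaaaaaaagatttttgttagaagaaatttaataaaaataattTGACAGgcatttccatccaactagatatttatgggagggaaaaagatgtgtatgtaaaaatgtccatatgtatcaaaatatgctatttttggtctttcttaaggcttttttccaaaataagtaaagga
AGL24, chr4:12674107-12674356: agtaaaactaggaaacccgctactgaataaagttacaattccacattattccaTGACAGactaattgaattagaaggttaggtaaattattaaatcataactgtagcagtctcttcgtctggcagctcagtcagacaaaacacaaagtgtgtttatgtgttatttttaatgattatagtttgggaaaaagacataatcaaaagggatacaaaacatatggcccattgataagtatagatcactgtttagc

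In TAIR10.1 the genes lie at chr2:18807505-18811125 (SOC1, minus strand), chr5:24964646-24968607 (AGL42, plus), chr5:21085462-21088414 (AGL71, minus), chr5:21081844-21084427 (AGL72, minus), chr4:12670897-12674106 (AGL24, minus), chr2:9579647-9583901 (SVP, plus), chr5:24502434-24506269 (FUL, minus), chr4:17004382-17006462 (FD, plus) and chr5:1024500-1025872 (TFL1, minus). None of them overlaps another annotated gene. AGL71 and AGL72 lie side by side on the same strand and could share reads, so their annotated transcripts were compared. No window of 50 bases was common to any pair of the 9 genes. The longest runs that AGL71 and AGL72 share are 23 bases long, and they are shown because a read would have to lie within one of them to match both genes exactly.
Shared run A: atcaagaagattgagaacgtgac
Shared run B: tttaagaaggctcatgagctttc

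Gene counts per library ranged from 18717248 to 26539358. The tests covered 21716 genes. The microRNA libraries stood apart from the rest: their scores on the leading principal component, which held 57.0% of the variance, were -114 and -113, while the remaining libraries scored -31.7 to 54.9. Levels are given in CPM, counts scaled to each library's total over the genes tested after TMM scaling, ± SD. STM, a target of the microRNA, averaged 31.5 ± 0.528 CPM in the microRNA line and 47.9 ± 3.35 CPM in ap1-1. It was called lower (log2 fold change -0.61 ± 0.08, SE, edgeR adjusted p = 0.000149). KNAT1, the other target, was not called (-0.41 ± 0.14, edgeR adjusted p = 0.0701). STM stood at 822 ± 47.6 CPM in STM-GR with DEX, 814 ± 8.22 CPM in STM-GR with mock and 46.8 ± 0.884 CPM in WT, so the transgene's RNA was present with and without DEX. Markers of organs beyond a meristem were present: summed over 6 floral organ genes the level was 355 to 654 CPM per library, and over 6 pollen and tapetum genes 596 to 2106 CPM. CLV3, a marker of shoot stem cells, had at most 2 counts in any library, while WUS, which marks the organizing centre below them, averaged 14.0 to 35.0 CPM over the groups.

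ap1-1 was compared with WT to ask how the 9 genes stood in the mutant that the microRNA line also carries. In ap1-1, 8 of the 9 rose and none fell, by 1.79-fold to 5.33-fold, and SVP was not called. In this comparison 5.42% of all genes tested were called higher and 5.19% lower. A call is an adjusted p under 0.05 in the quasi-likelihood F test of edgeR, with p-values adjusted after Benjamini and Hochberg over all genes tested. The median log2 fold change was 1.11 over the 9 genes and 0.01 over all genes tested. The tissue was sequenced in bulk, so fewer or more cells of a type and less or more RNA per cell cannot be told apart in any of these values.

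SOC1 had 109, 107 and 118 CPM in the ap1-1 libraries, against 48.5 and 55.0 CPM in WT. Every ap1-1 library stood far above both WT libraries (log2 fold change 1.11 ± 0.09, SE, edgeR adjusted p = 4.26e-06). AGL42 had 67.8, 69.2 and 68.7 CPM in ap1-1, against 35.1 and 38.7 CPM in WT, again with no overlap (0.90 ± 0.08, edgeR adjusted p = 1.32e-05). The neighbours AGL71 and AGL72 had the largest fold changes of the 9. AGL71 had 7.75, 6.83 and 8.16 CPM in ap1-1, against 1.23 and 1.69 CPM in WT (2.37 ± 0.22, edgeR adjusted p = 1.89e-05). AGL72 had 5.35, 4.61 and 4.21 CPM in ap1-1, against 0.533 and 1.24 CPM in WT (2.41 ± 0.33, edgeR adjusted p = 0.000407). For both genes the lowest ap1-1 library lay above the higher WT library, though WT and the sprayed groups rest on few reads, since AGL72 had 6 to 30 counts in each library that does not carry ap1-1.

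AGL24 had 10.1, 10.7 and 11.7 CPM in ap1-1, against 6.39 and 5.70 CPM in WT (log2 fold change 0.84 ± 0.15, edgeR adjusted p = 0.00228). Its relative SVP had 7.11, 6.25 and 8.62 CPM in ap1-1, against 6.35 and 5.79 CPM in WT (0.27 ± 0.15, edgeR adjusted p = 0.285). AGL24 separated the groups in every library, while for SVP the lowest ap1-1 library lay below the higher WT library, and the 95% interval of its log2 fold change was -0.05 to 0.59.

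FUL, which like SOC1 is among the abundant members, had 84.6, 88.1 and 106 CPM in ap1-1, against 51.5 and 46.7 CPM in WT (log2 fold change 0.92 ± 0.10, edgeR adjusted p = 7.73e-05). FD had 20.4, 14.6 and 14.6 CPM in ap1-1, against 5.29 and 5.66 CPM in WT (1.60 ± 0.17, edgeR adjusted p = 4.62e-05). TFL1 had 2.40, 2.75 and 4.05 CPM in ap1-1, against 0.861 and 1.12 CPM in WT (1.62 ± 0.37, edgeR adjusted p = 0.0126). None of these genes overlapped between the groups, so all 8 called genes were free of overlap, which held for 17.1% of all genes tested in the upward direction. FD was highest in ap1-1 replicate 1 and TFL1 in ap1-1 replicate 3, with a wide gap to the other libraries of the group.

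ap1-1 and WT were the groups with the largest spread between replicates, while the joint fit estimates a single spread per gene from all 15 libraries. In a fit of these 2 groups alone, 1.18% of all genes were called and 6 of the 9 members, as AGL24 (0.83, edgeR adjusted p = 0.0588) and TFL1 (1.61, edgeR adjusted p = 0.0624) were not. TFL1 also lost its call without WT replicate 1 (1.44, edgeR adjusted p = 0.118). Of the 6 floral organ markers AP3 and PI were lower in ap1-1, and their sum over the list was 491 to 553 CPM in ap1-1 and 589 to 654 CPM in WT. No pollen or green tissue marker was called. Of 4 shoot meristem markers tested KNAT1 was higher in ap1-1 (0.60 ± 0.14, edgeR adjusted p = 0.0176), and of 11 clock genes FKF1 was (0.32 ± 0.08, edgeR adjusted p = 0.0234). The sum over the shoot meristem markers was 168 to 199.6 CPM in ap1-1 and 157 to 176 CPM in WT. The part of these markers in the members' values was not tested.

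**Figure D1:**
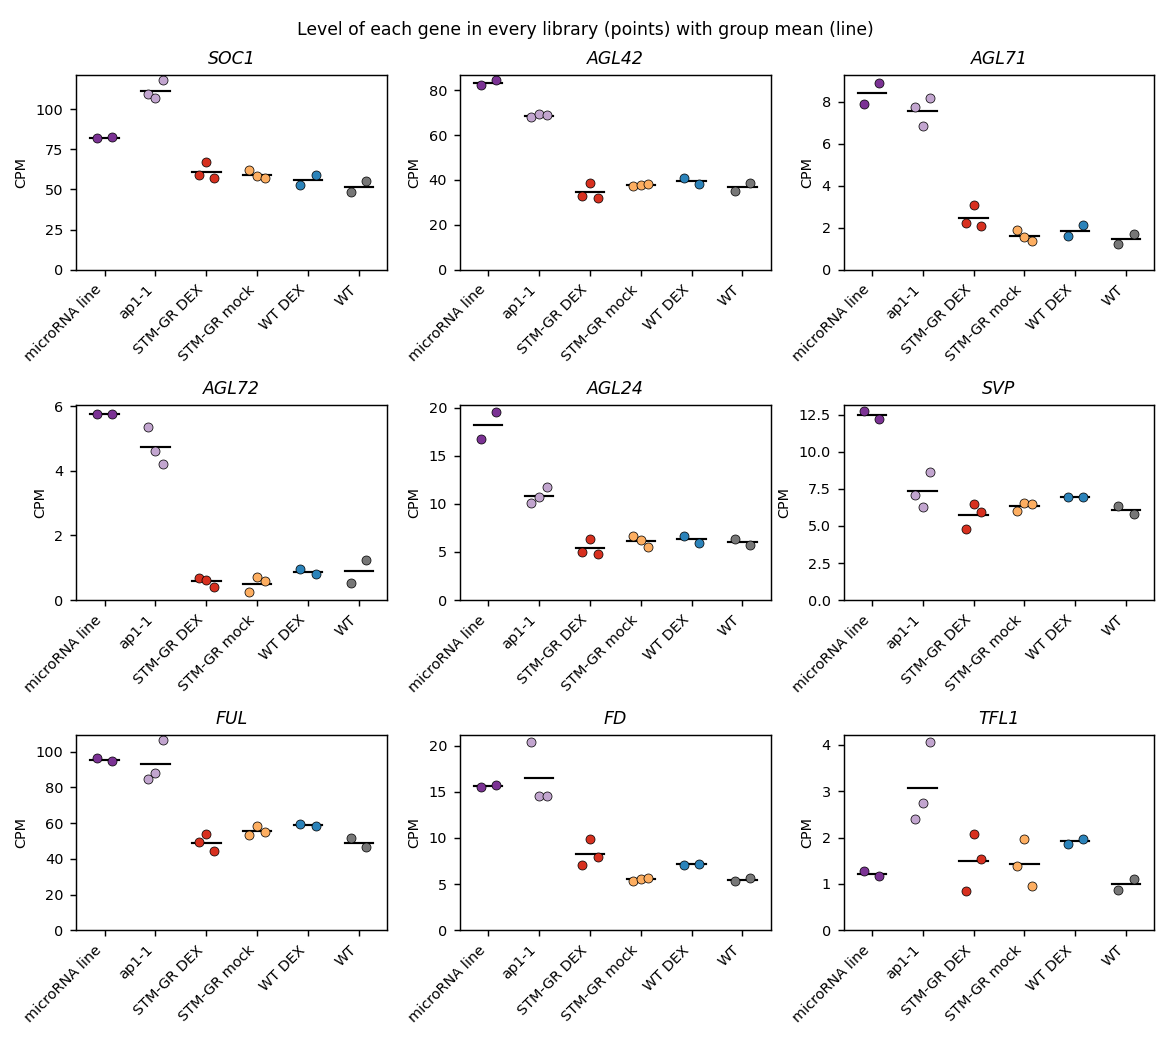
Level of each of the 9 genes in CPM (y axis, linear, from 0) in every library (points) of the 6 groups (x axis), with the group mean as a line. SOC1, AGL42, AGL71, AGL72, AGL24, FUL and FD are higher in both groups that carry ap1-1 than in every library of the 4 remaining groups, while SVP stands out in the microRNA line and TFL1 in ap1-1.

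The microRNA line was also set against WT, with the same WT libraries as in the ap1-1 comparison. As this line carries ap1-1 too, the allele and the microRNA cannot be told apart in this comparison. Again 8 of the 9 rose and none fell, but here SVP was called and TFL1 was not. In this comparison 12.1% of all genes tested were called higher and 16.8% lower. The median log2 fold change of the 9 genes was 1.17, against 0.01 over all genes tested.

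SVP had 12.8 and 12.2 CPM in the microRNA line, against 6.35 and 5.79 CPM in WT, 2.06-fold higher with no overlap, as for 34.8% of all genes tested (log2 fold change 1.04 ± 0.16, edgeR adjusted p = 0.000226). AGL24 had 16.8 and 19.6 CPM there, against 6.39 and 5.70 CPM in WT, 3.0-fold higher (1.59 ± 0.15, edgeR adjusted p = 4.84e-06). TFL1 had 1.28 and 1.16 CPM in the microRNA line, against 0.861 and 1.12 CPM in WT. The TFL1 libraries of the microRNA line lay just above those of WT, with 24 counts in each, and the log2 fold change of 0.30 ± 0.44 had a 95% interval of -0.64 to 1.25 (edgeR adjusted p = 0.651). The SOC1-like genes AGL71 (2.52 ± 0.23) and AGL72 (2.69 ± 0.34) were again the members with the largest fold changes, followed by AGL24, FD (1.51 ± 0.18), AGL42 (1.17 ± 0.09), SVP, FUL (0.96 ± 0.11) and SOC1 (0.67 ± 0.09), all with edgeR adjusted p of at most 0.000226.

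Markers of tissues differed between the microRNA line and WT as well. All 6 floral organ markers were lower in the microRNA line, with sums of 355 to 357 CPM there and 589 to 654 CPM in WT. Of 6 pollen and tapetum markers 3 were lower, with sums of 596 to 607 CPM in the microRNA line and 1242 to 1764 CPM in WT. Of 4 shoot meristem markers tested STM and WUS were lower, and of 11 clock genes 4 were higher and 5 lower. Green tissue markers split, with 1 higher and 2 lower of 5. The part of these genes in the members' values was not tested.

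**Figure D2:**
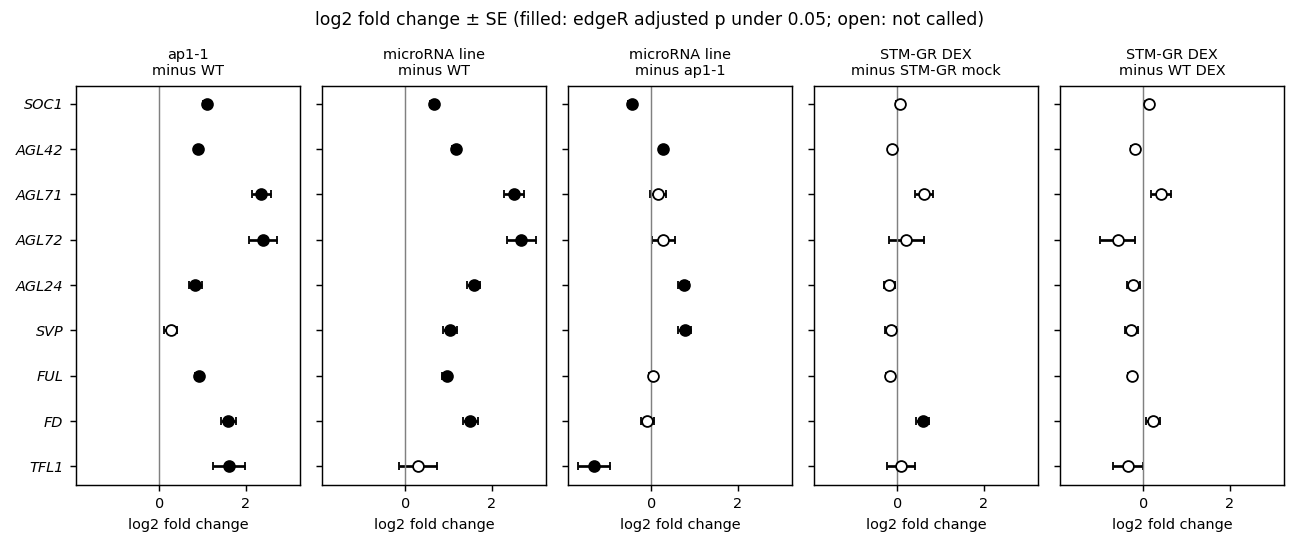
log2 fold change (x axis) of each gene (y axis) in 5 comparisons, named above the panels, with bars of ± SE. Filled points were called by edgeR and open points were not: 8 filled points in each comparison of an ap1-1 carrier with WT, 5 between the microRNA line and ap1-1, 1 between DEX and mock in STM-GR, and none between STM-GR and WT when both had DEX.

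Setting the microRNA line against ap1-1 shows how the members stood when STM and BP were targeted where the AP1 promoter is active. AGL24, SVP and AGL42 rose, SOC1 and TFL1 fell, and AGL71, AGL72, FUL and FD were not called. Of all genes tested 4.87% were called higher and 11.4% lower in this comparison. The median log2 fold change was 0.15 over the 9 genes and 0 over all genes tested. This comparison shares the ap1-1 libraries with the first and the microRNA libraries with the second, so its values are not independent of theirs.

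AGL24 had 16.8 and 19.6 CPM in the microRNA line, against 10.1, 10.7 and 11.7 CPM in ap1-1. Both microRNA libraries were above all ap1-1 libraries, and the level was 1.68-fold higher (log2 fold change 0.75 ± 0.13, 95% interval 0.46 to 1.03, edgeR adjusted p = 0.00124). SVP had 12.8 and 12.2 CPM in the microRNA line, against 7.11, 6.25 and 8.62 CPM in ap1-1. It was likewise without overlap and 1.70-fold higher (0.77 ± 0.14, 95% interval 0.46 to 1.08, edgeR adjusted p = 0.00171). These 2 relatives, which differ in their effect on flowering time, thus had log2 fold changes within 1 SE of each other. AGL42 had 82.2 and 84.3 CPM in the microRNA line, against 67.8, 69.2 and 68.7 CPM in ap1-1. Its change was smaller, 1.21-fold, with no overlap (0.28 ± 0.08, 95% interval 0.11 to 0.45, edgeR adjusted p = 0.0231).

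SOC1 had 82.1 and 82.5 CPM in the microRNA line, against 109, 107 and 118 CPM in ap1-1. Both microRNA libraries lay below all 3 ap1-1 libraries and above both WT libraries (log2 fold change -0.44 ± 0.09, 95% interval -0.62 to -0.25, edgeR adjusted p = 0.00245). TFL1 had 1.28 and 1.16 CPM in the microRNA line, against 2.40, 2.75 and 4.05 CPM in ap1-1, from 24 and 24 counts against 64, 52 and 80. It stood at 0.401 of its ap1-1 level with no overlap, though ap1-1 replicate 3 was far above the rest (-1.32 ± 0.37, 95% interval -2.11 to -0.53, edgeR adjusted p = 0.0237). SOC1 and its relative AGL42 thus moved in opposite directions between the same libraries. A fall without overlap, as SOC1 and TFL1 had, was seen for 21.7% of all genes tested.

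AGL71 had 7.88 and 8.91 CPM in the microRNA line, against 7.75, 6.83 and 8.16 CPM in ap1-1 (log2 fold change 0.15, 95% interval -0.25 to 0.54). AGL72 had 5.75 and 5.76 CPM in the microRNA line, against 5.35, 4.61 and 4.21 CPM in ap1-1 (0.28, 95% interval -0.28 to 0.84). AGL71 overlapped, whereas for AGL72 both microRNA libraries were the higher ones, as for 17.2% of all genes tested. FUL had 96.3 and 94.7 CPM in the microRNA line, against 84.6, 88.1 and 106 CPM in ap1-1 (0.04, 95% interval -0.17 to 0.25). FD had 15.5 and 15.7 CPM in the microRNA line, against 20.4, 14.6 and 14.6 CPM in ap1-1 (-0.09, 95% interval -0.41 to 0.24). The intervals of AGL71, FUL and FD exclude a change of 1.5-fold in either direction, while that of AGL72 does not (edgeR adjusted p of 0.537 to 0.845 for these 4 genes).

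The calls of SOC1, AGL24 and SVP held in all 12 alternative fits, with edgeR, DESeq2 or limma-voom adjusted p of at most 0.0419, 0.0382 and 0.024. AGL42 lost its call in the fit of these 2 groups alone (adjusted p = 0.124) and without microRNA line replicate 1 (0.088) or 2 (0.163). TFL1 lost its call without ap1-1 replicate 3 (log2 fold change -1.07, adjusted p = 0.067) and without microRNA line replicate 1 (-1.39, 0.106) or 2 (-1.25, 0.177). In simulated data for this comparison, 51% of genes changed by 0.58 on the log2 scale and 73% of genes changed by 1 were recovered. These shares are not given by level, so they do not measure recovery of genes with few reads.

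Organ and clock genes also differed between the microRNA line and ap1-1. Of 6 floral organ markers 5 were lower in the microRNA line, among them AG at 81.9 CPM in the microRNA line and 136 CPM in ap1-1, and their sum was 355 to 357 CPM in the microRNA line and 491 to 553 CPM in ap1-1. Of 6 pollen and tapetum markers 3 were lower, VGD1, VGDH1 and PPME1, with VGD1 at 182 CPM in the microRNA line and 614 CPM in ap1-1. AMS, MS2 and A9 were not called. The sum over the 6 was 596 to 607 CPM in the microRNA line and 1206 to 1466 CPM in ap1-1. Of 11 clock genes 2 were higher and 5 lower, among them the morning genes CCA1, LHY and PRR9. CCA1 was at 2.06 CPM in the microRNA line and 7.69 CPM in ap1-1, and LHY at 1.16 CPM in the microRNA line and 4.63 CPM in ap1-1. Green tissue markers split, with 1 higher and 3 lower of 5. AP1 itself was at 124 CPM in the microRNA line and 88.3 CPM in ap1-1 (log2 fold change 0.49 ± 0.07, edgeR adjusted p = 0.000182). Of 4 shoot meristem markers tested STM and WUS were lower, with WUS at 14.0 CPM in the microRNA line and 27.1 CPM in ap1-1. KNAT1 and CLV1 were not called, and CLV1 was at 54.9 CPM in the microRNA line and 55.3 CPM in ap1-1. The part of these genes, and of the tissues and sampling times they mark, in the members' changes was not tested.

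**Figure D3:**
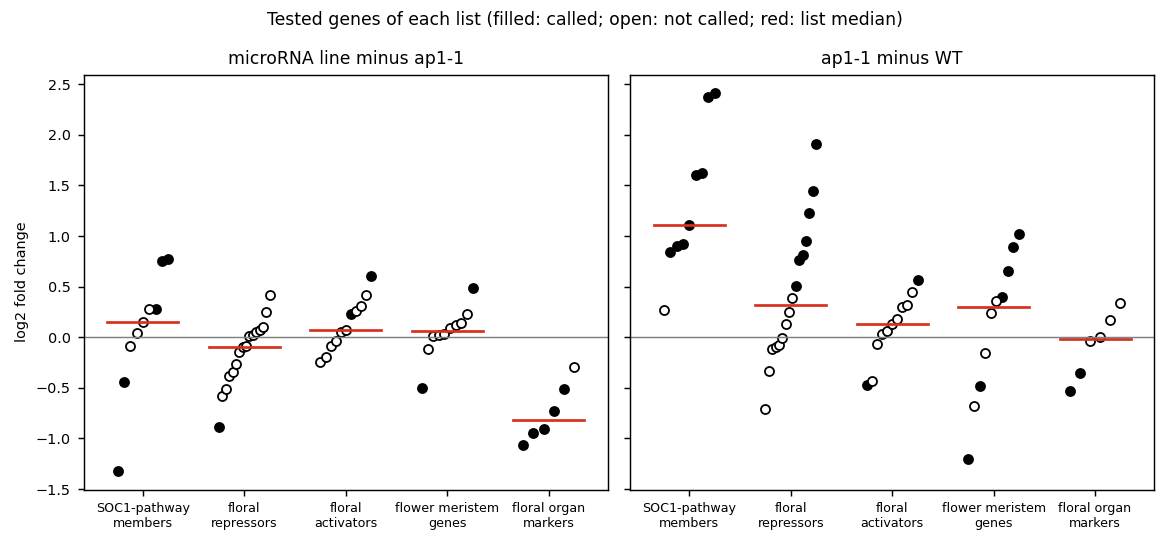
log2 fold change (y axis) of each tested gene of 5 lists (x axis) for the microRNA line minus ap1-1 (left) and ap1-1 minus WT (right), with called genes filled, genes not called open and the list median as a red line. The median of the 9 members in ap1-1 minus WT is 1.11, and those of the repressors, activators and flower meristem genes are 0.32, 0.13 and 0.30, though single genes of the lists overlap; the members spread to both sides of 0 in the microRNA line minus ap1-1.

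STM-GR plants with DEX were compared with mock to ask how the members responded within 5 h of STM activation. FD rose 1.5-fold and was the only member called, 1 of 9, where 5.56% of all genes tested were called higher and 12.7% in either direction. Of the members not called, AGL71 had the lowest unadjusted p-value of edgeR (0.00863). The median log2 fold change of the 9 genes was 0.05, against 0.01 over all genes tested.

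FD had 7.10, 9.86 and 7.95 CPM with DEX, against 5.36, 5.59 and 5.67 CPM with mock. All DEX libraries lay above all mock libraries, with replicate 2 the highest (log2 fold change 0.59 ± 0.15, 95% interval 0.27 to 0.90, edgeR adjusted p = 0.0171). The call was lost without DEX replicate 2 (0.43, adjusted p = 0.102), mock replicate 1 (0.56, 0.0738) or mock replicate 3 (0.60, 0.0531). AGL71 had 2.23, 3.09 and 2.07 CPM with DEX, against 1.89, 1.55 and 1.37 CPM with mock, also without overlap, as for 19.9% of all genes tested in this direction (0.62 ± 0.20, 95% interval 0.18 to 1.06, edgeR adjusted p = 0.0609).

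SOC1 had 58.8, 67.0 and 57.4 CPM with DEX, against 61.8, 58.1 and 57.1 CPM with mock. The libraries overlapped, and the 95% interval of the log2 fold change was -0.11 to 0.21 (edgeR adjusted p = 0.733). AGL42 had 32.8, 38.6 and 31.9 CPM with DEX, against 37.4, 37.6 and 38.3 CPM with mock (95% interval -0.29 to 0.02). FUL had 49.2, 53.9 and 44.3 CPM with DEX, against 53.6, 58.6 and 55.2 CPM with mock (95% interval -0.37 to 0.01). DEX replicate 2 was the high library of its group in each of these genes, and it held the highest value of its group for 8 of the 9 members.

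AGL24 had 4.95, 6.36 and 4.83 CPM with DEX, against 6.62, 6.29 and 5.51 CPM with mock, and SVP had 4.79, 6.51 and 5.92 CPM with DEX, against 5.99, 6.53 and 6.46 CPM with mock. Both genes overlapped between the groups, with 95% intervals of -0.47 to 0.10 for AGL24 and -0.43 to 0.15 for SVP. AGL72 had 0.690, 0.633 and 0.406 CPM with DEX, against 0.236, 0.704 and 0.58 CPM with mock (95% interval -0.63 to 1.06). TFL1 had 0.852, 2.08 and 1.54 CPM with DEX, against 1.38, 1.97 and 0.952 CPM with mock (95% interval -0.62 to 0.77). At these depths a change of 1.5-fold in AGL72 or TFL1 lay within the interval, so it was not excluded. In simulated data for this comparison 60% of genes changed by 0.58 on the log2 scale were recovered. This share is not given by level, so it does not measure recovery of genes with few reads, such as AGL72 and TFL1.

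STM-GR with DEX was also set against WT with DEX, which shares the spray but not the transgene. None of the 9 genes was called by edgeR, DESeq2 or limma-voom, where edgeR called 10.8% of all genes tested. The lowest unadjusted p-values of edgeR among the 9 were those of FUL (0.0221) and AGL42 (0.0279). FD had 7.10, 9.86 and 7.95 CPM in STM-GR with DEX, against 7.11 and 7.14 CPM in WT with DEX. One STM-GR library lay just below both WT libraries and 2 lay above, and the log2 fold change of 0.22 ± 0.16 had a 95% interval of -0.13 to 0.57 (edgeR adjusted p = 0.453). FUL had 49.2, 53.9 and 44.3 CPM in STM-GR with DEX, against 59.2 and 58.2 CPM in WT with DEX, lower without overlap, as for 25.3% of all genes tested (-0.26 ± 0.10, edgeR adjusted p = 0.124). AGL42 had 32.8, 38.6 and 31.9 CPM in STM-GR with DEX, against 40.8 and 38.2 CPM in WT with DEX, overlapping through replicate 2 (-0.20 ± 0.08, edgeR adjusted p = 0.145). FUL was called in the fit of these 2 groups alone (-0.25, adjusted p = 0.0473), and AGL42 without STM-GR DEX replicate 2 (-0.30, adjusted p = 0.0273).

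WT with DEX was set against WT without treatment as the control for the spray, and it does not separate DEX from spraying. None of the 9 genes was called by edgeR, DESeq2 or limma-voom, where edgeR called 0.617% of all genes tested. Among the 9, FUL (0.0333) and TFL1 (0.0343) had the lowest unadjusted p-values of edgeR. FUL had 59.2 and 58.2 CPM with DEX, against 51.5 and 46.7 CPM without (log2 fold change 0.26 ± 0.11, edgeR adjusted p = 0.445). TFL1 had 1.87 and 1.97 CPM with DEX, against 0.861 and 1.12 CPM without (0.95 ± 0.41, edgeR adjusted p = 0.449). FD had 7.11 and 7.14 CPM with DEX, against 5.29 and 5.66 CPM without (0.38 ± 0.18, 95% interval -0.01 to 0.77, edgeR adjusted p = 0.525). All 3 genes were higher with DEX in every library, which held for 22.9% of all genes tested in this direction.

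The DEX response of STM-GR, over mock, minus that of wild type, over no treatment, was tested as a difference. None of the 9 genes was called by edgeR, DESeq2 or limma-voom, where edgeR called 1.93% of all genes tested. FUL had the lowest p-value of the 9 (difference of log2 fold changes -0.44 ± 0.14, 95% interval -0.75 to -0.14, edgeR adjusted p = 0.172). For FD the difference was 0.21 ± 0.24 with a 95% interval of -0.30 to 0.71 (edgeR adjusted p = 0.918). The FD change in STM-GR was thus not shown to differ from that in wild type. The wild-type response also holds the spraying, which both STM-GR groups had, so the responses set side by side are not alike.

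Per kb of exon, which allows levels of different genes to be set roughly side by side, FUL, SOC1 and AGL42 were the abundant members in all 6 groups. The length merges the exons of all annotated transcripts of a gene, 17 for AGL42 and 1 for AGL24. It can exceed the length of the transcripts present, so close values do not settle an order. In the microRNA line FUL stood at 73.3, SOC1 at 53.0 and AGL42 at 51.9 CPM per kb. In ap1-1 SOC1 and FUL were nearly level at 71.7 and 71.4 CPM per kb, ahead of AGL42 at 42.8. In WT the order was FUL at 37.7, SOC1 at 33.3 and AGL42 at 23.0 CPM per kb. AGL24 came next in every group, at 15.7 CPM per kb in the microRNA line, 9.40 in ap1-1 and 5.24 in WT. The places below it differed: AGL72 was at 7.35 CPM per kb in the microRNA line, 6.03 in ap1-1 and 1.13 in WT, while SVP was at 6.98, 4.09 and 3.39 in the same groups. TFL1 was the lowest of the 9 in the microRNA line, at 1.40 CPM per kb, and in ap1-1, at 3.53.

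**Figure D4:**
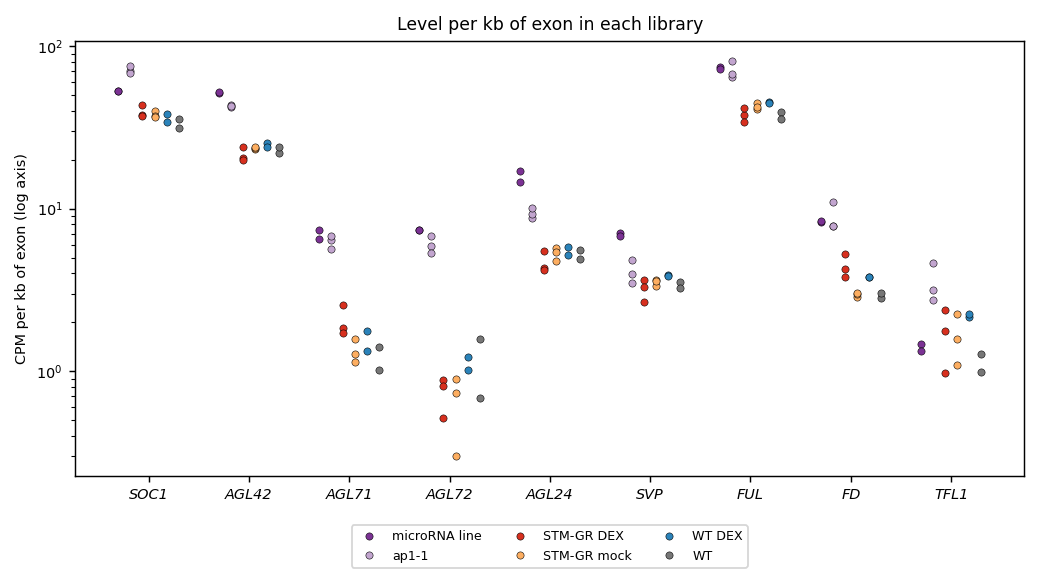
Level per kb of exon (y axis, log scale) of each gene (x axis) in every library (points), coloured by group. FUL, SOC1 and AGL42 lie highest in each group, AGL71 and AGL72 have the widest range between groups, and of these 3 abundant genes SOC1 alone has every ap1-1 library above the microRNA line.

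Across the 6 groups, ordered by mean CPM, the members fell into a few patterns. SOC1 was highest in ap1-1, then in the microRNA line, with no overlap between them or with the group that came next, STM-GR with DEX, and the 4 groups without ap1-1 overlapped from neighbour to neighbour. AGL42, AGL72, AGL24 and SVP were highest in the microRNA line, without overlap with ap1-1, as for 17.2% of all genes tested. Of these, AGL72 was not called between the microRNA line and ap1-1. For AGL71, FUL and FD the microRNA line and ap1-1 overlapped and stood together above the 4 remaining groups. TFL1 was highest in ap1-1 and next in WT with DEX, without overlap, and only WT averaged less than the microRNA line. Among the 4 groups without ap1-1, 4 comparisons were made, and in the fit of all libraries FD in DEX against mock was the only call of a member.

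Further flowering genes were taken as lists to set beside the 9. Among 16 floral repressors, 7 rose and none fell in ap1-1 against WT, with a median log2 fold change of 0.32. They included the AP2-like gene SNZ (1.91 ± 0.28, edgeR adjusted p = 0.000625) and the relatives of the repressor FLC named MAF4 (1.45 ± 0.22, edgeR adjusted p = 0.000903), MAF5 (0.95 ± 0.16, edgeR adjusted p = 0.00225) and MAF1 (0.81 ± 0.14, edgeR adjusted p = 0.00251). Of 11 floral activators tested, SPL15, which acts in the age pathway, rose (0.57 ± 0.13, edgeR adjusted p = 0.0129) and FTIP1, which helps FT to move, fell (-0.47 ± 0.11, edgeR adjusted p = 0.0191). Of 10 flower meristem genes 4 rose and 2 fell, among them SEP4 (1.02 ± 0.15, edgeR adjusted p = 0.000795), SEP1 (0.40 ± 0.07, edgeR adjusted p = 0.0021) and CAL (0.89 ± 0.18, edgeR adjusted p = 0.00694), which rose, and AP1 itself (-1.20 ± 0.07, edgeR adjusted p = 2.21e-07), which fell. FDP, the FD paralog, also rose (0.74 ± 0.15, edgeR adjusted p = 0.00704).

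In the microRNA line against ap1-1 few genes of these lists were called. AGL18, a MADS-box repressor, fell (log2 fold change -0.89 ± 0.15, edgeR adjusted p = 0.00063) as the only one of 16 repressors. The homeobox gene PNF, whose protein partners STM (0.61 ± 0.14, edgeR adjusted p = 0.00824), and SPL4 (0.23 ± 0.07, edgeR adjusted p = 0.0386) rose among 11 activators. Of 10 flower meristem genes AP1 rose and AGL6 fell (-0.50 ± 0.12, edgeR adjusted p = 0.00738). The list medians were -0.09, 0.07 and 0.06, against 0 over all genes tested.

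With DEX against mock in STM-GR, the repressor list split, with TOE1 higher (log2 fold change 1.01 ± 0.17, edgeR adjusted p = 0.00126) and its relatives AP2 (-0.62 ± 0.12, edgeR adjusted p = 0.0033) and TOE3 (-0.70 ± 0.13, edgeR adjusted p = 0.00297) lower. PNF rose by 0.61 ± 0.13 (edgeR adjusted p = 0.00551), while SPL9 (-0.36 ± 0.10) and FTIP1 (-0.37 ± 0.10) fell (edgeR adjusted p of 0.0353 and 0.0315). The flower meristem genes AP1 (0.66 ± 0.06), LFY (0.61 ± 0.13) and UFO (1.40 ± 0.22) rose and SEP3 (-0.42 ± 0.10) fell, 4 of 10 called, with edgeR adjusted p of at most 0.0157. FDP rose beside FD, to 6.21 ± 0.435 CPM with DEX, against 4.08 ± 0.254 CPM with mock (0.60 ± 0.13, edgeR adjusted p = 0.00715). FDP was also called higher against WT with DEX, where it had 3.43 ± 0.371 CPM (0.86 ± 0.15, edgeR adjusted p = 0.00207). In the difference of DEX responses between STM-GR and wild type FDP was not called (0.56 ± 0.22, edgeR adjusted p = 0.309). Of the list genes named here, only TOE1 (1.15 ± 0.27, edgeR adjusted p = 0.0437) and AP1 (0.77 ± 0.10, edgeR adjusted p = 0.000568) were called in that difference. KNAT1, the KNOX relative of STM, rose as well (0.67 ± 0.13, edgeR adjusted p = 0.00284), and so did 4 of 11 clock genes, among them PRR9 (1.00 ± 0.19, edgeR adjusted p = 0.00345). The part of the clock genes in the FD value was not tested.

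For SOC1, FUL and TFL1 the genes whose log2 CPM followed theirs most closely over the 15 libraries were looked up among all genes tested. The closest to SOC1 were FMO GS-OX2 (AT1G62540, Pearson r = 0.961), AT2G24560 (0.947) and AT1G16810 (0.945). The closest to FUL were AT4G22490 (0.959), PRXR1 (AT4G21960, 0.958) and AT1G49230 (0.954). The closest to TFL1 were the mitochondrial loci ATMG00080 (0.846) and ATMG00030 (0.841) and then EIL1 (AT2G27050, 0.829). These correlations describe 15 libraries that share groups, and for SOC1 and FUL the libraries fall into those with and those without ap1-1, so a gene that differs between these sets in the same direction can score high.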

How the data were processed

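RNA from inflorescence tissue was sequenced in 15 libraries of 6 groups. The authors deposited raw gene counts, 1 table per library. The submitters' processing notes name TopHat2 2.0.6, HTSeq 0.62 and the TAIR10 build. The strand setting of the counting and the read length are not given in the sources used here. A deposited table of normalized values was not used. Of the entries counted, 28775 name a gene, and 5 that name none (5.49% to 6.63% of reads) were left out.

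Tests used edgeR 4.0.16 (R 4.3.3). Genes were kept by filterByExpr with the 6 groups and min.count 10, libraries were scaled by TMM, and a joint model of the 15 libraries gave two-sided quasi-likelihood F tests. Values of p were adjusted by the Benjamini-Hochberg method over the 21716 genes kept, and genes under 0.05 are termed called. CPM are per TMM-scaled library, and a prior count of 2 was added for log2 CPM. SE is the log2 fold change over the square root of F, and 95% intervals use the degrees of freedom of the model. The biological coefficient of variation was 9.85%. The script was tested on simulated counts with known changes. Alternatives were DESeq2 1.42.0, limma 3.58.1 (voom), and other scaling, filters, samples and blocks.

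Positions and promoters came from RefSeq's TAIR10.1, whose gene table held 28009 of the genes counted. The 9 genes and all lists were chosen with earlier results of these data known. The text names all 9, STM and KNAT1, and up to 4 called genes of lowest adjusted p per list and comparison. It also names the 3 genes outside the 9 that were most like SOC1, FUL and TFL1. Marker and clock genes named beyond this rule, and FT, were picked after their values were seen. The deepest library held 26539358 and the shallowest 18717248 gene counts.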

Additional observations from a re-analysis of the deposited data

How the results depend on the processing

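Each comparison was refitted with RLE scaling, no low-count filter, DESeq2, limma-voom, only the groups compared, a replicate block and each library left out. Between the microRNA line and WT all 99 values kept direction and call. The number of members called stayed at 5 (microRNA line against ap1-1), 1 (DEX against mock in STM-GR), 0 (both DEX), 0 (DEX in wild type), 0 (difference of DEX responses), 8 (ap1-1 against WT) and 8 (microRNA line against WT) with the first 4 of these alternatives. With only the groups compared it was 4, 1, 1, 0, 0, 6 and 8. Leaving out 1 library gave 3 to 5 in the first comparison, 0 to 1 in the second, 0 to 1 with both DEX and 7 to 8 in ap1-1 against WT; a lone library is assumed there to vary like the other groups.

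Over all genes, the fit of only the groups compared called 1969 genes against 3532 (microRNA line against ap1-1), 5006 against 2760 (DEX against mock), 4547 against 2355 (both DEX), 68 against 134 (DEX in wild type), 714 against 419 (difference) and 257 against 2306 (ap1-1 against WT). DESeq2 called 246 for DEX in wild type. The cause was not tested.

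Directions reversed only for values not called, mostly when 1 library was left out, and those ranges follow. In the microRNA line against ap1-1, FUL ran from -0.03 to 0.15 and FD from -0.17 to 0.09, with the reversal without ap1-1 replicate 1. With DEX against mock, SOC1 was -0.03 and TFL1 -0.26 without DEX replicate 2, with ranges up to 0.09 and 0.35, TFL1 was -0.15 without mock replicate 3, and AGL72 ran from -0.15 (without mock replicate 1) to 0.50. For DEX in wild type, AGL72 was 0.10 with limma-voom, 0.05 with the block numbered by the description and -0.50 to 0.71 with 1 library left out, positive without WT DEX replicate 2 (0.11) or WT replicate 2, and AGL24 ran from -0.02 (without WT DEX replicate 1; -0.01 without WT replicate 2) to 0.15. For the difference, AGL72 ran from -0.50 (without WT replicate 2; -0.13 without mock replicate 1) to 0.71, and SOC1 ran from -0.16 to 0.03 (without WT replicate 1; 0.02 without WT DEX replicate 2).

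Same-numbered replicates did not deviate together (correlations of -0.13 to 0.08). With the replicate block the members called were 5, 1, 0, 0, 0, 8 and 8, in the order above, and the same with the numbers of the description field, an alternative chosen after seeing the data. Genes with few reads, AGL72 and TFL1, have the widest intervals.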

Other observations

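FT, the florigen that binds FD, was measured at low levels in these libraries. It averaged 4.89 ± 1.41 CPM in STM-GR with DEX and 7.05 ± 0.581 CPM in STM-GR with mock (SD, n = 3 each). In wild type it averaged 2.85 ± 0.103 CPM with DEX and 4.26 ± 0.287 CPM without treatment (n = 2 each). The mean was lower with DEX in both genotypes, and neither difference was called (log2 fold change -0.52 ± 0.20, edgeR adjusted p = 0.0991 in STM-GR, and -0.58 ± 0.26, edgeR adjusted p = 0.489 in wild type). FT averaged 2.82 ± 0.601 CPM in the microRNA line and 2.53 ± 0.618 CPM in ap1-1, against 4.26 ± 0.287 CPM in WT, while FD was higher in both lines than in WT. FT was not called there either (-0.59 ± 0.27, edgeR adjusted p = 0.117, and -0.77 ± 0.24, edgeR adjusted p = 0.0556). The relatives TSF, BFT, ATC and MFT had too few counts to be tested.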
